A study of Gallus gallus with 6 samples.

Results

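Of 6 chicken ileum libraries, 4 held transcripts of genes that lie on the W sex chromosome and 2 held almost none, and every gene was compared between these sets. The libraries were chosen by 1 measured value, the estimated count of HINTW, a W-linked member of the histidine triad family that the deposited table names Wpkci-7. Libraries with a count above 100 were taken as having W-linked transcripts, which gave FOS 1, FOS 3, control 1 and control 3, and the others, FOS 2 and control 2, were taken as being without them. The lowest count inside the rule was 1974, in FOS 3, and the highest outside it was 3, in control 2, so that no library lay near the threshold.

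The birds were Taiping chickens, a native Chinese breed, aged 2 months and all described as male. The FOS birds received fructooligosaccharide, a fermentable sugar chain, at 1 mL per litre of water beside the basal diet, and the control birds received the basal diet of corn and soybean alone. RNA-seq of whole ileum, the last section of the small intestine, was done with 3 libraries per diet. Both diets hold 2 libraries with W-linked transcripts and 1 without, so diet entered each fit as a covariate. No label states whether each library came from its own bird or from a pool, so p-values measure only the spread between libraries, which may be technical. Both libraries without W-linked transcripts carry the replicate number 2, so the presence of these transcripts and the replicate number cannot be told apart.

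In birds the female carries a Z and a W chromosome and the male carries a pair of Z chromosomes. The W chromosome keeps few genes, most of them old partners of Z-linked genes with housekeeping roles in transcription, splicing, translation and protein turnover. No silencing of a whole Z chromosome is known in birds, and most Z-linked genes are expressed at a higher level in males than in females. A male bird has no W chromosome, so W-linked transcripts in 4 libraries go against the description of every bird as male. The libraries are called here only by whether these transcripts were present, since no label gives another sex and whether a library came from 1 bird was not tested.

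Total estimated counts per library ran between 14668289 and 18106651, so that 1 CPM, the unit of counts scaled to library size, stood for 14.4 to 18.8 counts. Ileal genes were detected in all 6 libraries: FABP6, the ileal bile acid binding protein, stood between 1079 and 5755 CPM, and VIL1, villin of the microvillus core, between 767 and 1432 CPM. The exocrine pancreas genes CPA1, PNLIP and CTRB2 had at most 2 counts in any library. In a longer list of such genes, 4 of 20 found were high enough to be tested. Among the 4 were AMY1A, annotated as a hepatic amylase, at 17.7 to 44.6 CPM, and CPA5 at 1.01 to 4.6 CPM. Genes of the gonad were low in every library. CYP19A1, the aromatase that makes oestrogen, had 0 counts throughout. DMRT1, the Z-linked gene of testis formation, had at most 5 counts, and FOXL2, an ovarian factor, at most 7. AMH, also a gonad gene, was detected at 0.213 to 2.37 CPM, with at most 39 counts.

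The levels of W-linked genes are given as a description, because the rule used one of them. RefSeq's GRCg7b assembly places 27 genes of the table on W, and 24 of these had at least 100 counts summed over the libraries with W-linked transcripts. For 21 of the 24, the mean CPM of the libraries without W-linked transcripts was at most 0.937% of that of the libraries with them, and 9 of the 21 had no count at all in FOS 2 and control 2. The 21 genes summed to 1204 CPM in FOS 1, 1087 in FOS 3, 1054 in control 1 and 1048 in control 3, against 2.86 CPM in FOS 2 and 2.08 in control 2. In single genes, the highest count in a library without was 12 and the lowest count in a library with was 19. The 21 were chosen because their mean in the libraries without was under 5% of that in the libraries with. Their lack of overlap follows largely from this choice and is only described. Of all genes tested, 4.95% were higher in every library with W-linked transcripts.

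HINTW, on which the rule rests, had 2339 counts in FOS 1, 1974 in FOS 3, 2438 in control 1 and 2804 in control 3, against 1 in FOS 2 and 3 in control 2. SPIN1W, the W partner of the histone reader spindlin 1, had 205, 241, 275 and 231 counts in the same 4 libraries, against 0 in both others. A count of 0 allows up to 3 counts, which is 0.209 CPM in FOS 2 and 0.173 CPM in control 2, and this limit covers counting error only. All 4 libraries with W-linked transcripts thus held SPIN1W at a level far above that limit.

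HNRNPKL, the W partner of an RNA-binding protein of splicing and translation, had 1011, 1211, 1251 and 1421 counts in FOS 1, FOS 3, control 1 and control 3, against 7 in FOS 2 and 1 in control 2. ATP5F1AW, a W-linked copy of the alpha subunit of mitochondrial ATP synthase, had 3816, 2969, 2761 and 3005 counts, against 4 in FOS 2 and 3 in control 2. The W-linked copy of RPL17, a protein of the large ribosomal subunit, had 4183, 5683, 4444 and 4950 counts, against 5 in FOS 2 and 8 in control 2. These 3 genes separate the libraries as HINTW does. NIPBLL, related to the cohesin loader NIPBL, had the largest remainder in the libraries without, with 12 counts in FOS 2 and 7 in control 2, against 900, 1292, 1122 and 1201 counts in FOS 1, FOS 3, control 1 and control 3. W-linked genes and their Z partners are near-identical in places, so the authors' counting may have split reads between them, and such small remainders are uncertain.

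Among the W-linked genes with 100 counts, 3 did not follow the split. NEDD4L, a ubiquitin ligase of ion channel turnover, had 126, 150, 118 and 118 CPM in FOS 1, FOS 3, control 1 and control 3, against 161 CPM in FOS 2 and 159 CPM in control 2. It was therefore present in all 6 libraries, although the assembly places its gene ID on W. An endogenous retroviral gene of the K group had 93 counts in FOS 3 and between 3 and 19 in the 5 others, and an uncharacterised gene had 83 counts in control 3 and 48 in control 2. The remaining 3 of the 27 genes had at most 6 counts in any library.

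**Figure D1:**
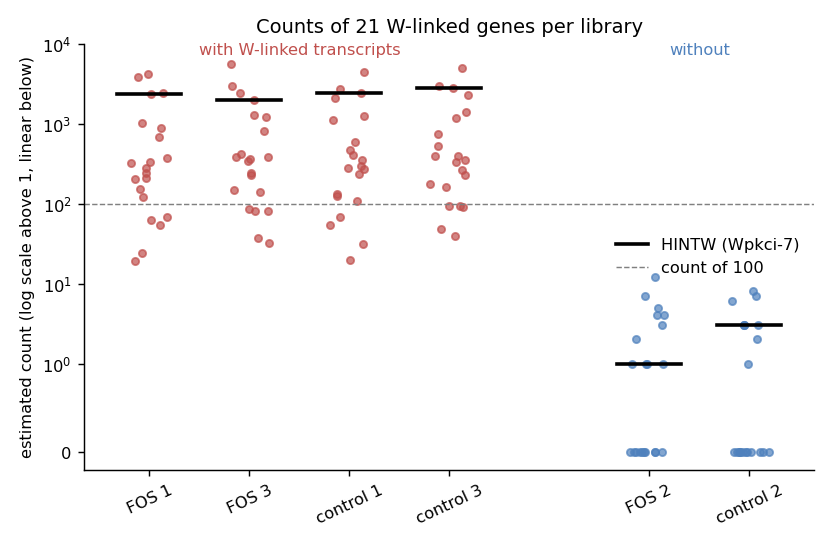
Estimated counts of the 21 W-linked genes that followed the split, 1 point per gene and library, on an axis that is logarithmic above 1 and linear below. The black bar is HINTW and the dashed line the threshold of 100; the 4 libraries with W-linked transcripts lie at 19 counts or more for every gene, and FOS 2 and control 2 at 12 or fewer.

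Z-linked genes were lower as a set in the libraries with W-linked transcripts. The rule used no Z-linked gene, and fold changes below are of the libraries with W-linked transcripts over those without, on the log2 scale, from edgeR's quasi-likelihood fit with diet. Over 573 Z-linked genes tested the median log2 fold change was -0.47, a ratio of 0.723, and the quartiles were -0.72 and -0.22. Of these genes 516 (90.1%) had a negative fold change, against 45.8% of 11472 genes on other chromosomes, whose median was 0.02. Fold changes below -0.5 were found for 46.6% of the Z-linked genes and for 3.68% of the genes on other chromosomes.

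The libraries did not overlap for many of the Z-linked genes. In 307 of the 573 (53.6%) every library with W-linked transcripts lay below both libraries without, against 6.16% of all 14091 genes tested and 3.76% of the genes on other chromosomes. The opposite arrangement was found for 9 Z-linked genes (1.57%), against 4.95% of all genes tested. At an unadjusted edgeR p under 0.05, 253 Z-linked genes were lower, where 3.12% of all genes tested were lower, and 6 were higher, where 1.56% of all were. In bulk tissue, fewer cells that express a gene and less of its RNA per cell cannot be told apart.

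**Figure D2:**
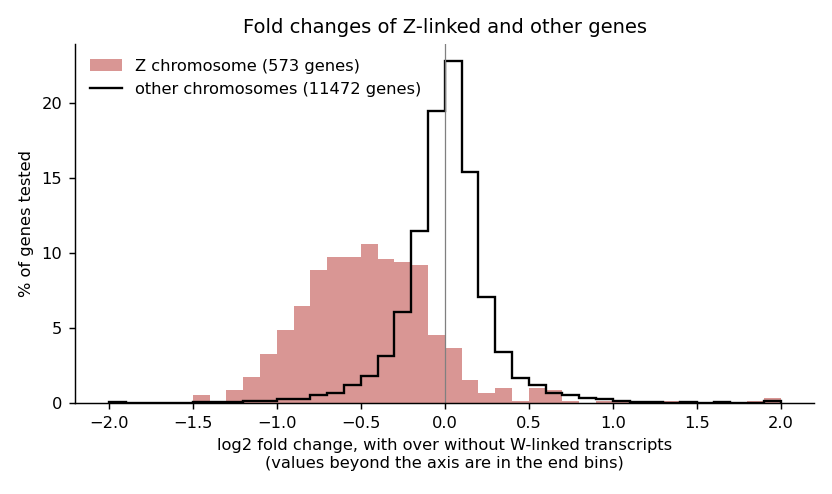
Share of genes tested (vertical axis, %) by log2 fold change of libraries with over libraries without W-linked transcripts (horizontal axis), in bins of equal width, for 573 Z-linked genes (filled) and 11472 genes on other chromosomes (line). The Z-linked genes centre at -0.47 and the others at 0.02.

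No other chromosome had such a shift. Among 31 other chromosomes with at least 30 genes tested, medians of the log2 fold change lay between -0.07, on chromosome 16, and 0.04, on chromosome 7, and the shares of genes with a negative fold change between 40.9% and 60.0%. Chromosome 16, which carries the chicken MHC and other multigene families, had 40 genes tested. The 12 mitochondrially encoded genes had a median of -0.28 and none passed the test, while their share of all counts was 3.41%, 3.62%, 3.47% and 4.11% in FOS 1, FOS 3, control 1 and control 3, against 4.46% in FOS 2 and 3.31% in control 2. These shares overlap between the sets.

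**Figure D3:**
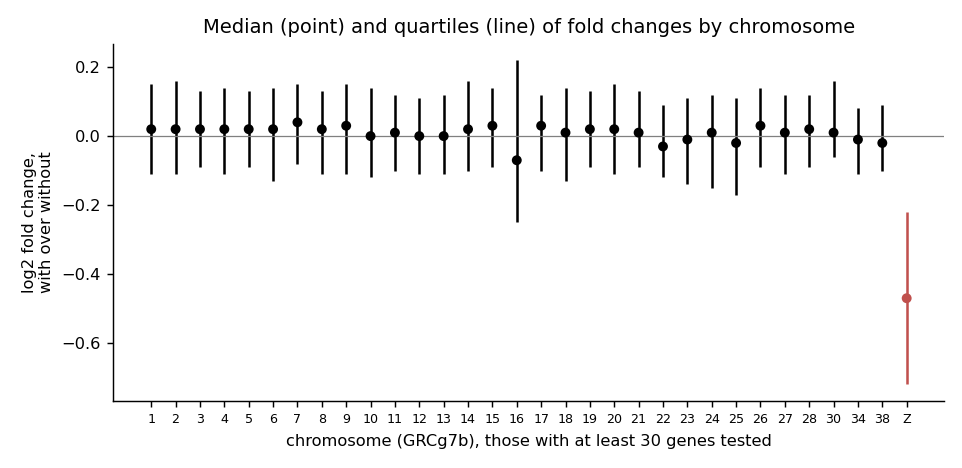
Median (point) and quartiles (line) of the log2 fold change of libraries with over libraries without W-linked transcripts, for each chromosome with at least 30 genes tested. Z lies at -0.47 with quartiles of -0.72 and -0.22, and the 31 other chromosomes lie between -0.07 and 0.04.

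The shift was present in each library and in both diets. The median deviation of Z-linked genes from their mean over the 6 libraries, on the log2 CPM scale, was -0.22 in FOS 1, -0.16 in FOS 3, -0.11 in control 1 and -0.15 in control 3, against 0.28 in FOS 2 and 0.38 in control 2. For genes on other chromosomes the same deviation lay between -0.01 and 0.01. Z-linked genes took 2.53%, 2.49%, 2.54% and 2.46% of the counts in the 4 libraries with W-linked transcripts, against 3.51% in FOS 2 and 3.39% in control 2. The libraries of each set thus differ from each other by much less than the sets do.

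FPKM, the authors' values per gene length and library size, allow levels to be compared between genes. The ratio of the median FPKM of Z-linked genes to that of genes on other chromosomes was 0.566 in FOS 1, 0.597 in FOS 3, 0.588 in control 1 and 0.585 in control 3, against 0.8 in FOS 2 and 0.853 in control 2. It averaged 0.584 ± 0.013 (SD, n = 4) with W-linked transcripts and 0.827 ± 0.0375 (SD, n = 2) without. The typical Z-linked gene was therefore below the typical gene of other chromosomes in all 6 libraries, and further below it in the libraries with W-linked transcripts.

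Differences within each diet came from a fit of all libraries in which the difference could depend on diet. Within FOS, the median log2 fold change of Z-linked genes was -0.47 and 491 of 573 genes were negative. Within control it was -0.48 with 486 negative genes. Each of these contrasts rests on 1 library without W-linked transcripts, whose spread is assumed to equal that of the others. Only their fold changes are therefore described. The fit of the difference between diets gave no adjusted p under 0.05 for any Z-linked gene.

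The median shift was of similar size at low and high expression, while fewer genes of the lowest class were without overlap. The Z-linked genes were divided by mean level into 3 classes of 191. From the lowest to the highest class, 69, 122 and 116 genes were lower without overlap, and 0, 4 and 12 passed the test. Of all genes tested, 6.16% were lower without overlap and 0.121% were called lower. These shares were not taken by level over all genes, so the rise between classes is not read as a trait of Z-linked genes. Genes at 0.351 to 11.8 CPM had a median log2 fold change of -0.40 and 157 were negative, those at 11.8 to 36.1 CPM one of -0.54 with 180 negative, and those at 36.7 to 2065 CPM one of -0.46 with 179 negative.

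The shift also ran along the whole chromosome. The genes were taken in the order of GRCg7b in 28 blocks of neighbours, of 20 genes each except the last, which held 33. Every block had a negative median, between -0.66, from ENSGALG00000052213 to SMU1, and -0.21, from PAIP1 to CCNO. The block from AK3 to TTC39B had the fewest negative genes, 13 of 20, and a median of -0.23. It holds RLN3 and GLDC, which stood higher with W-linked transcripts, and CD274, the immune checkpoint ligand, with 17.8, 10.2, 12.6 and 16.2 CPM in FOS 1, FOS 3, control 1 and control 3, against 9.82 CPM in FOS 2 and 11.3 CPM in control 2. CD274 was named after its values were seen, and its sets overlapped, with a log2 fold change of 0.43 (SE 0.27). PDCD1LG2, described as programmed cell death 1 ligand 2, lies in the same block and had a log2 fold change of -0.59 (SE 0.14). Neither passed the test.

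**Figure D4:**
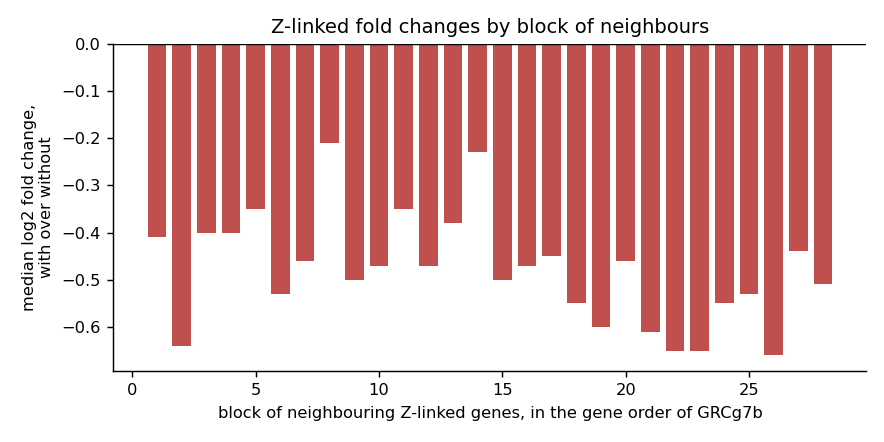
Median log2 fold change of libraries with over libraries without W-linked transcripts (vertical axis) in 28 consecutive blocks of Z-linked genes in chromosome order (horizontal axis). All 28 bars lie below 0, between -0.66 and -0.21.

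Single Z-linked genes were tested across all 14091 genes with Benjamini-Hochberg adjustment, and 63 genes (0.447%) passed an adjusted p of 0.05. Lower with W-linked transcripts were 17 (0.121% of all genes tested), of which 16 were Z-linked, 2.79% of the Z-linked genes. Higher were 46 (0.326%), of which 19 were W-linked, 27 had no place in the assembly and none was Z-linked. The libraries were divided by the count of a W-linked gene that was itself fitted, so the 63 and the 46 include calls that the rule fixes, and nothing is read from them. The 16 Z-linked genes had ratios between 0.411 and 0.588 and adjusted p between 0.0159 and 0.0489. Their number rests on 5 of the 6 libraries: it was 12 without FOS 1, with 9 of the 16 among them, and 0 when FOS 3, control 1, control 3, FOS 2 or control 2 was left out. With the replicate number as a block, 9 Z-linked genes were called lower, 8 of the 16 among them. DESeq2 called 202 genes (1.43%) in all, with 0.788% of the genes tested lower and 0.646% higher, and 99 of the lower ones were Z-linked, all 16 among them. The median log2 fold change over all Z-linked genes stayed between -0.50 and -0.46 whichever library was left out.

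Among the 16 were enzymes and transporters of the lysosome. ARSK, a lysosomal sulfatase, had 10.5, 9.04, 9.25 and 8.85 CPM in FOS 1, FOS 3, control 1 and control 3, against 24.7 CPM in FOS 2 and 21.2 CPM in control 2. It had the largest change of the 16, a log2 fold change of -1.28 (SE 0.16, adjusted p = 0.0345). TMEM175, a potassium channel of lysosomes, had 34.4, 40.6, 34.5 and 33.7 CPM, against 74.7 CPM in FOS 2 and 68.0 CPM in control 2, a log2 fold change of -0.99 (SE 0.12, adjusted p = 0.0344).

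Membrane traffic was represented by CLTA and RGP1. CLTA, a light chain of clathrin, had 108, 87.0, 88.9 and 92.0 CPM in FOS 1, FOS 3, control 1 and control 3, against 189 CPM in FOS 2 and 201 CPM in control 2. It fell by 1.05 on the log2 scale (SE 0.13, adjusted p = 0.0336). RGP1, part of the exchange factor for the Golgi GTPase RAB6A, averaged 24.3 ± 1.84 CPM with W-linked transcripts (SD, n = 4) and 49.1 CPM without (n = 2), a log2 fold change of -1.02. Its partner RIC1 is also Z-linked and averaged 29.3 CPM with and 37.0 CPM without, a log2 fold change of -0.32 that did not pass the test.

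Metabolic enzymes formed a further group. MTAP, which salvages methionine and adenine from methylthioadenosine, had 25.4, 24.7, 28.9 and 31.9 CPM in FOS 1, FOS 3, control 1 and control 3, against 55.4 CPM in FOS 2 and 61.3 CPM in control 2, a log2 fold change of -1.08 (SE 0.12, adjusted p = 0.0216). SPTLC1, a subunit of the enzyme that opens sphingolipid synthesis, averaged 53.6 ± 4.63 CPM with (SD, n = 4) and 104 CPM without (n = 2). ALDH7A1, an aldehyde dehydrogenase of lysine breakdown, averaged 68.0 ± 3.37 CPM with (SD, n = 4) and 130 CPM without (n = 2). Their log2 fold changes were -0.96 and -0.94.

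Genes of the nucleus and of protein synthesis made up the rest with a known role. APTX, which repairs stalled ends of broken DNA, had 13.0, 13.7, 12.1 and 10.9 CPM in FOS 1, FOS 3, control 1 and control 3, against 27.0 CPM in FOS 2 and 28.2 CPM in control 2, a log2 fold change of -1.16. NOL6, a nucleolar protein of ribosome assembly, and MRPL17, of the mitochondrial ribosome, had log2 fold changes of -0.99 and -0.98. RNF20, a ubiquitin ligase of histone H2B, had 96.1, 90.5, 96.8 and 100 CPM, against 162 CPM in FOS 2 and 164 CPM in control 2. Its log2 fold change of -0.77 (SE 0.10, adjusted p = 0.047) was the smallest of the 16.

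NREP had the largest spread within the sets among the 16, with 46.6, 49.9, 60.4 and 70.0 CPM in FOS 1, FOS 3, control 1 and control 3, against 102 CPM in FOS 2 and 141 CPM in control 2. The gene fell by 1.09 on the log2 scale (SE 0.12, adjusted p = 0.0167). C18orf32 fell by 1.02 and NIPSNAP3A by 0.81 on the log2 scale, with adjusted p of 0.0159 and 0.0489. In each of the 16 genes the highest library with W-linked transcripts lay below the lowest library without. This lack of overlap follows largely from their choice by the test and is only described. Of all genes tested, 6.16% were lower without overlap.

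**Figure D5:**
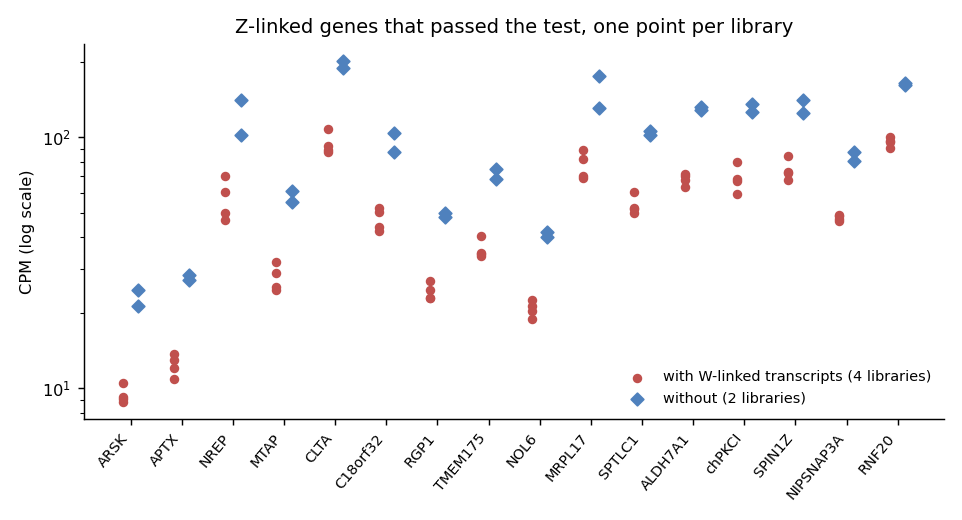
Level in CPM (logarithmic axis) of the 16 Z-linked genes that passed the test, 1 point per library, with circles for the 4 libraries with W-linked transcripts and diamonds for FOS 2 and control 2. The sets do not overlap in any of the 16 genes, which follows largely from their choice by the test.

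Among the 16 were chPKCI and SPIN1Z, Z partners of the W-linked genes HINTW and SPIN1W. chPKCI, described as HINT1-Z and the partner of HINTW, had 68.0, 79.5, 59.5 and 67.1 CPM in FOS 1, FOS 3, control 1 and control 3, against 135 CPM in FOS 2 and 126 CPM in control 2, a log2 fold change of -0.93 (SE 0.12, adjusted p = 0.0426). SPIN1Z had 67.8, 72.7, 83.8 and 71.9 CPM, against 125 CPM in FOS 2 and 141 CPM in control 2, a log2 fold change of -0.85 (SE 0.12, adjusted p = 0.0485). A second gene that bears the symbol HINT1 in the table, described as HINT2-Z, had 7.76, 10.8, 3.06 and 4.58 CPM, against 10.6 CPM in FOS 2 and 9.65 CPM in control 2, and overlapped between the sets.

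A list of Z partners of W-linked genes had 22 members on Z that were tested. All 22 had a negative fold change, with a median of -0.64, beside -0.47 over all Z-linked genes. In 17 the sets did not overlap, beside 307 of the 573 Z-linked genes. SPIN1Z passed the test, beside 16 of the 573, and DESeq2 called 8, beside 99 of the 573. The list holds HINT1, described as the HINT2-Z gene, and holds neither chPKCI nor the Z-linked RPL17, which averaged 582 ± 31.3 CPM with (SD, n = 4) and 1146 CPM without (n = 2), with an adjusted p of 0.0555. SMAD2Z, a transducer of TGF-beta signals, had 15.9, 18.4, 17.4 and 17.6 CPM in FOS 1, FOS 3, control 1 and control 3, against 32.5 CPM in FOS 2 and 35.4 CPM in control 2, and its log2 fold change of -0.97 (SE 0.14) just missed the threshold, with an adjusted p of 0.0515. At the other end SUB1, a transcriptional coactivator, averaged 79.7 ± 7.58 CPM with (SD, n = 4) and 84.5 CPM without (n = 2), a log2 fold change of -0.08 that lay between -0.19 and 0.02 with libraries left out.

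For some of the pairs the counts of W and Z copies were also summed, so that reads counted on either copy enter the value. For HINTW with chPKCI the sum averaged 210 ± 15.3 CPM with W-linked transcripts (SD, n = 4) and 130 CPM without (n = 2), a ratio of 1.61. For UBE2R2 the ratio of the sums was 1.37, for HNRNPK 1.25 and for SMAD2 1.18. It was below 1 for the other 4 pairs summed: 0.899 for the ATP synthase alpha subunit, 0.815 for the chromatin remodeller CHD1, 0.755 for RPL17 and 0.662 for SPIN1. Further W-linked genes with a Z partner, such as those of VCP and KCMF1, were not summed. The division around 1 therefore holds for the pairs given only. The SPIN1 sum averaged 88.1 ± 8.38 CPM with (SD, n = 4) and 133 CPM without (n = 2). These sums contain the rule's own gene or genes that follow it, and are given as a description.

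Some Z-linked genes of hormone signalling and lipid metabolism, among them PRLR, GHR, HMGCS1 and VLDLR, were followed whatever their values. PRLR, the prolactin receptor, had 20.4, 20.8, 41.8 and 32.1 CPM in FOS 1, FOS 3, control 1 and control 3, against 76.8 CPM in FOS 2 and 45.6 CPM in control 2, a log2 fold change of -1.17 (SE 0.34, adjusted p = 0.54) that was -0.31 without FOS 2. GHR, the growth hormone receptor, averaged 14 ± 4.11 CPM with (SD, n = 4) and 17.1 CPM without (n = 2). STARD4 and HSD17B4 were named for a low p within their lists. STARD4, a carrier of cholesterol inside the cell, had 55.5, 40.8, 45.8 and 58.1 CPM, against 103 CPM in FOS 2 and 110 CPM in control 2, a log2 fold change of -1.09 (SE 0.17, adjusted p = 0.0663, DESeq2 adjusted p = 3.37e-05). HSD17B4, a peroxisomal enzyme of fatty acid breakdown, averaged 157 ± 21.4 CPM with (SD, n = 4) and 243 CPM without (n = 2).

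HMGCS1, an enzyme of cholesterol synthesis, had 82.1, 55.0, 47.6 and 49.9 CPM in FOS 1, FOS 3, control 1 and control 3, against 67.0 CPM in FOS 2 and 40.7 CPM in control 2, a log2 fold change of 0.14 (SE 0.18). VLDLR, a lipoprotein receptor, averaged 44.9 ± 9.46 CPM with W-linked transcripts (SD, n = 4) and 46.9 CPM without (n = 2), a log2 fold change of -0.08 (SE 0.19). The sets overlapped for both of these Z-linked genes, and neither passed the test.

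Immune and stress genes on Z included IL7R, the interleukin 7 receptor of lymphocytes, with 50.5, 59.1, 82.4 and 87.5 CPM in FOS 1, FOS 3, control 1 and control 3, against 106 CPM in FOS 2 and 97.6 CPM in control 2. Its sets did not overlap but its log2 fold change of -0.59 had an adjusted p of 0.658. KLF4, a transcription factor of differentiated epithelium, averaged 52.1 ± 27.5 CPM with (SD, n = 4) and 87.3 CPM without (n = 2), and FOS 3 reached the level of the libraries without. In the list of respiratory chain genes, 3 members lie on Z. NDUFAF2, COX7C and NDUFS4 had log2 fold changes of -0.69, -0.70 and -0.81, beside a median of 0.10 over the other members tested. The sets overlapped for NDUFS4, which was named after its values were seen to complete the 3, and none of them passed the test.

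By KEGG class of the authors' annotation, all 15 classes with at least 10 Z-linked genes had a negative Z median. It ran between -0.74 for replication and repair, where 12 of 12 genes were negative, and -0.21 for signaling molecules and interaction, where 18 of 27 were. The genes of the same classes on other chromosomes had medians between -0.05 and 0.07. Translation had a Z median of -0.58 over 20 genes and 0.00 over 354 others, and lipid metabolism -0.40 over 18 genes and 0.01 over 253 others.

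The 9 Z-linked genes that stood higher in every library with W-linked transcripts were named after their values were seen. GLDC, glycine decarboxylase of the mitochondrial glycine cleavage system, had 20.5, 4.55, 23.3 and 4.10 CPM in FOS 1, FOS 3, control 1 and control 3, against 1.32 CPM in FOS 2 and 2.02 CPM in control 2. Its log2 fold change of 2.97 (SE 0.95) had an adjusted p of 0.674 in edgeR and 0.00561 in DESeq2. With the replicate number as a block the log2 fold change was 2.54, with an edgeR adjusted p of 0.0312. That p leaves out the spread between numbers 1 and 3, so nothing is read from it. The libraries with W-linked transcripts split by replicate number, with FOS 1 and control 1 above FOS 3 and control 3. RLN3, a relaxin peptide, had 6.48, 3.70, 6.07 and 5.28 CPM, against 1.67 CPM in FOS 2 and 1.33 CPM in control 2, a log2 fold change of 1.84 (SE 0.38, adjusted p = 0.217, DESeq2 adjusted p = 0.00262).

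EGFLAM, a matrix protein, had 7.76, 13.5, 15.8 and 16 CPM, against 6.27 CPM in FOS 2 and 4.16 CPM in control 2, with an adjusted p of 0.494 in edgeR and 0.0423 in DESeq2. GRP, gastrin releasing peptide of enteric nerves, had 7.83, 1.80, 3.06 and 2.66 CPM, against 0.279 CPM in FOS 2 and 1.16 CPM in control 2. The other 5 were the matrix genes VCAN and FBN2, the integrin ITGA2, PTGR1 of prostaglandin breakdown and PSAT1 of serine synthesis, with log2 fold changes between 0.39 and 0.68. None of the 9 passed edgeR's test, and DESeq2 called GLDC, RLN3 and EGFLAM.

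On chromosomes other than Z and W, edgeR called none of 11472 genes. At an unadjusted p under 0.05, 128 were lower and 101 higher, where 4.68% of all genes tested had such a p in either direction. DESeq2 called 6 of the 11472 lower and 12 higher, where it called 0.788% of all genes tested lower and 0.646% higher. Its calls on these chromosomes were thus rarer than over all genes tested. Limma-voom called none. In simulated data the same edgeR fit recovered 4% of genes changed 1.5-fold and 54% of those changed 2-fold. Small changes would therefore mostly be missed. Sets without overlap were found for 431 genes (3.76%) in the lower and 523 (4.56%) in the higher direction, beside 6.16% and 4.95% of all genes tested.

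Of the named genes on these chromosomes, ADH6, annotated as an alcohol dehydrogenase, had the smallest adjusted p, with 185, 156, 123 and 162 CPM in FOS 1, FOS 3, control 1 and control 3, against 84.0 CPM in FOS 2 and 74.2 CPM in control 2. The log2 fold change was 0.98 (SE 0.16, adjusted p = 0.0853, DESeq2 adjusted p = 4.01e-05). BG1, a butyrophilin-like gene of the B-G family near the MHC, had 121, 112, 53.7 and 97.1 CPM, against 30.6 CPM in FOS 2 and 33.8 CPM in control 2, a log2 fold change of 1.53 (SE 0.30, adjusted p = 0.171, DESeq2 adjusted p = 6.28e-05). B-G genes are a multigene family, so reads may be split between members and the value is uncertain. SORL1, a sorting receptor, and AQP5, a water channel, were also without overlap, with log2 fold changes of 0.88 and 0.68 and DESeq2 adjusted p of 0.0105 and 0.0487.

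In the lower direction, CA4, a carbonic anhydrase of the apical membrane, had 324, 301, 243 and 188 CPM in FOS 1, FOS 3, control 1 and control 3, against 441 CPM in FOS 2 and 534 CPM in control 2, a log2 fold change of -0.92 (SE 0.21, adjusted p = 0.293). PLTP, a phospholipid transfer protein, averaged 11.6 ± 1.39 CPM with (SD, n = 4) and 18.9 CPM without (n = 2), a log2 fold change of -0.71. ACAD8, of valine breakdown, had a log2 fold change of -0.67. None of the 3 passed edgeR's test, and DESeq2 called CA4 and PLTP, with adjusted p of 0.0102 and 0.0391.

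SLC2A2, the basolateral glucose and fructose transporter, had 33.4, 11.2, 1.80 and 1.33 CPM in FOS 1, FOS 3, control 1 and control 3, against 3.27 CPM in FOS 2 and 0.173 CPM in control 2, and overlapped between the sets. Within each diet, both libraries with W-linked transcripts were higher, and its log2 fold change was 2.85 (SE 0.58, adjusted p = 0.201, DESeq2 adjusted p = 9.82e-05). The limma-voom adjusted p was 0.788. The control values rest on 30 counts in control 1, 25 in control 3 and 3 in control 2, so they lie near the limit of detection. RBP2, the retinol binding protein of enterocytes, had 416, 219, 94.2 and 124 CPM, against 142 CPM in FOS 2 and 36.4 CPM in control 2, with an adjusted p of 0.243 in edgeR and 0.000411 in DESeq2. It too overlapped between the sets and was higher in both libraries with W-linked transcripts within each diet. GATA4, a transcription factor of the upper small intestine in mammals, had 26.1, 17.2, 6.13 and 0.266 CPM, against 0.557 CPM in FOS 2 and 0.289 CPM in control 2. Its sets overlapped, since control 3, with 5 counts, lay below both libraries without W-linked transcripts. The log2 fold change of 4.54 (SE 1.3) did not pass the test, with an edgeR adjusted p of 0.508.

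Genes and loci without a chromosome in the assembly gave the remaining calls. Of 2022 tested, 28 passed (1.38%), beside 0.447% of all genes tested. Of the 28, 27 were higher with W-linked transcripts, where 0.326% of all genes tested were called higher. These 27 comprised 16 loci assembled from reads and 11 Ensembl genes. In 22 of the 27 the libraries without W-linked transcripts averaged under 5% of the level of those with, and in 10 both had no count. These 22 follow HINTW, on which the rule rests, so the 27 calls are given as a description. The other 5 kept over 5% in the libraries without. The number called was 16 without control 1, 10 without control 3, 11 without FOS 2 and 8 without control 2. DESeq2 called 61 of the unplaced genes and loci, beside 1.43% of all genes tested.

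The 2 unnamed loci with the largest fold changes had no count in FOS 2 or control 2. MSTRG.16459 had 10.7, 13.1, 10.2 and 9.38 CPM in FOS 1, FOS 3, control 1 and control 3, and MSTRG.16457 had 6.75, 7.91, 8.53 and 8.85 CPM. The authors' annotation matches 6 of the 27 to 1 uncharacterised protein predicted in turkey and 2 to a predicted relative of the RAS GTPase-activating protein RASA1, and it gives no description for 14. RASA1 itself is Z-linked and had a log2 fold change of -0.76 (adjusted p = 0.129).

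A locus that the authors' annotation names gag, after the capsid gene of retroviruses, was present in all 6 libraries. MSTRG.1837 had 175, 184, 189 and 233 CPM in FOS 1, FOS 3, control 1 and control 3, against 67.8 CPM in FOS 2 and 85.8 CPM in control 2, a log2 fold change of 1.35. It was named after its values were seen, because it had the highest level of the 27. Another of the 27 with the symbol gag, MSTRG.16015, had 10.1, 17, 14.8 and 19.7 CPM, against 2.02 CPM in FOS 2 and 2.31 CPM in control 2. Its log2 fold change was 2.82. Retroviral copies are numerous in the chicken genome, so reads cannot be assigned to 1 copy.

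The 1 unplaced locus that fell was MSTRG.11247, annotated as a predicted butyrophilin, a family that includes the B-G genes. It had 0.54, 1.35, 0.18 and 0 CPM in FOS 1, FOS 3, control 1 and control 3, against 19.2 CPM in FOS 2 and 11.7 CPM in control 2. Its log2 fold change was -5.29 (SE 0.71, edgeR adjusted p = 0.0435), between -6.98 and -4.31 with libraries left out. The limma-voom adjusted p was 0.0558. The values rest on 8, 24, 3 and 0 counts, against 275 in FOS 2 and 203 in control 2. MSTRG.11247 was thus high enough to be tested mainly through FOS 2 and control 2, and its call is only described.

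Gene lists of cell types, hormones, stress and metabolism were compared in the same fit. Over 25 lists, 550 genes were tested and edgeR called none, while 19 were lower and 6 higher at an unadjusted p under 0.05. Of all genes tested, 3.12% were lower and 1.56% higher at that p, and DESeq2 called 1.43%. DESeq2 called 4 of the 550, of which STARD4, HSD17B4 and NDUFAF2 are Z-linked and lower, and SLC2A2 is on chromosome 9 and higher. On Z were 25 of the 550, with a median log2 fold change of -0.26 and 20 negative, and the 525 outside Z and W had a median of 0.03. The list of sex determination and steroid genes had 33 tested, with a median of -0.64 over its 5 Z-linked members and 0.02 over the others. ESR1, an oestrogen receptor, stood at 1.74 ± 0.582 CPM with W-linked transcripts (SD, n = 4) and at 1.63 CPM without (n = 2).

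Epithelial lists had medians near that of all genes tested, 0.01. The median was -0.11 for 36 enterocyte genes, 0.01 for 13 goblet and secretory genes, 0.00 for 22 enteroendocrine genes and 0.06 for 14 crypt stem cell genes. Within FOS the mean log2 CPM of the enterocyte genes was 8.89 in FOS 1 and 8.93 in FOS 3, against 8.62 in FOS 2. Within control the direction was opposite, with 8.09 in control 1 and 8.0 in control 3, against 8.32 in control 2. Calcium and phosphate genes had a median of -0.11 over 16 genes. CALB1, the calcium-binding protein of absorption, was named for a low p within this list. It averaged 189 ± 76.7 CPM with (SD, n = 4) and 343 CPM without (n = 2). The log2 fold change of -0.87 (SE 0.32) did not pass the test, with an edgeR adjusted p of 0.901.

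Lists of the gut wall had medians of 0.19 for 26 smooth muscle genes, -0.01 for 28 fibroblast and matrix genes, -0.22 for 27 enteric neuron and glia genes, -0.06 for 19 endothelial genes and -0.25 for 13 mesothelium and fat genes. Lists of immune and blood cells had medians of -0.07 for 26 T and NK cell genes, 0.15 for 18 B and plasma cell genes, -0.28 for 23 macrophage and dendritic cell genes, -0.24 for 12 granulocyte and mast cell genes and -0.51 for 10 erythrocyte genes. The mean log2 CPM of the erythrocyte genes was 2.60, 3.82, 2.69 and 3.63 in FOS 1, FOS 3, control 1 and control 3, against 4.0 in FOS 2 and 3.74 in control 2, so FOS 3 reached the level of control 2. For the macrophage genes it was 5.37, 5.61, 6.0 and 5.9, against 6.15 in FOS 2 and 5.87 in control 2. No member of these lists passed the test, and the part of the cell mixture in the values of single genes was not tested.

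Cell cycle genes had a median of 0.37 with 1 of 33 members negative, and a mean log2 CPM of 5.64, 4.46, 5.38 and 5.04 in FOS 1, FOS 3, control 1 and control 3, against 4.80 in FOS 2 and 4.89 in control 2. FOS 1, control 1 and control 3 thus lay above both libraries without W-linked transcripts, and FOS 3 below both. Interferon-stimulated genes had a median of 0.36 over 32 genes, and a mean log2 CPM of 7.92 in FOS 1, where the other 5 libraries lay between 6.37 and 6.86. The antiviral GTPase MX1 had 276 CPM in FOS 1 and 63.3, 83.9 and 72.1 CPM in FOS 3, control 1 and control 3, against 42.5 CPM in FOS 2 and 61.2 CPM in control 2.

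The remaining lists had medians of 0.13 for 26 heat shock genes, -0.23 for 21 immediate early genes, -0.05 for 23 clock genes, 0.15 for 26 sterol genes, 0.09 for 47 respiratory chain genes, 0.02 for 7 interferon and receptor genes and -0.42 for the 4 pancreatic genes that could be tested. CYR61, an immediate early matrix protein, had 16.5, 24.9, 17.1 and 28.0 CPM, against 41.0 CPM in FOS 2 and 41.3 CPM in control 2. With a log2 fold change of -0.93 (SE 0.24), its adjusted p was 0.423. The receptors of type I interferon, IFNAR1 and IFNAR2, lie on chromosome 1 and had log2 fold changes of 0.05 and 0.34.

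The difference between libraries with and without W-linked transcripts depended on diet for 1 gene (0.0071% of those tested). At an unadjusted p under 0.05 this held for 492 genes (3.49%), and DESeq2 called 36 (0.255%). The number called by edgeR was 22 without FOS 1, 13 without FOS 3, 2 without control 1 and 1 without control 3. The gene called with all libraries was GIMAP7L5, a GTPase of the lymphocyte GIMAP family on chromosome 2, with 0.675 CPM in FOS 1 and 0.898 CPM in FOS 3 against 41.9 CPM in FOS 2, and with 41.1 CPM in control 1 and 40.6 CPM in control 3 against 0.289 CPM in control 2. Its log2 fold change was -5.71 within FOS and 7.11 within control, a difference of -12.82 (adjusted p = 0.00572). In 3 libraries it was near 41 CPM and in the 3 others below 1 CPM, and GIMAP genes are a multigene family whose reads may be split. Each diet and each set thus held libraries at both levels. With 1 library without W-linked transcripts per diet, a dependence on diet cannot be told apart from a difference between FOS 2 and control 2. The calls of this fit are therefore only described.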

How the data were processed

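RNA-seq of 6 ileum libraries was used, 3 per diet. Per the labels' protocols the libraries were made with a kit for small RNA, while the table holds counts of whole genes, and this was not resolved. The authors deposited 1 table of 17623 genes, 16568 with Ensembl IDs and 1055 assembled loci, with estimated counts and FPKM per library, per the file headers. Tools credited to the submitters' processing notes, where no role is stated, are StringTie 1.3.1, HISAT2, Bowtie2, fastp 0.18.0 and DESeq2. Genome build, counting step and strand setting: not given in the sources used here. Another 12 value columns belong to no described sample and were not used. Of the deposited estimated counts 8.06% were not whole (tolerance 1e-09), and counts were rounded.

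Chromosomes come from RefSeq's GRCg7b, through NCBI gene IDs for 13627 genes (13650 of 13969 IDs matched) and unique symbols for 341; 3655 genes stayed unplaced.

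The main test was edgeR 4.0.16 (quasi-likelihood, TMM, filterByExpr) in R 4.3.3 on W status and diet, with 3 residual degrees of freedom, Benjamini-Hochberg adjustment over 14091 genes and a threshold of 0.05. The SE of a fold change was taken from its F statistic. DESeq2 1.42.0 and limma 3.58.1 (voom, and log2 of the deposited FPKM plus 1 or 0.1) were alternatives, with other scalings, filters and each library left out. The script was tested on simulated data. Deviations of libraries with the same replicate number, over genes outside Z and W, correlated at 0.191, 0.192 and 0.125, so the numbers may pair libraries. The main test did not include the replicate number, and a fit with the number as a block was an alternative. Number 2 is also the W status, so the block keeps only numbers 1 and 3 apart.

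The members and lists (629 of 708 list members were found) were chosen with earlier results of these data known. Genes named were all those on W; up to 14 lower and 8 higher Z-linked genes that passed, did not overlap and averaged at least 1 CPM; up to 14 per direction elsewhere, filled to 8 by unadjusted p; Z partners; up to 3 per list by p; 13 followed whatever their values; and at most 2 unnamed loci with the largest change in each direction. Another 6 genes that this rule names are not reported here. RNF20 and NIPSNAP3A complete the 16 Z-linked calls outside the rule.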

Additional observations from a re-analysis of the deposited data

Results flagged for a closer look

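Among 132 named genes, the 4 libraries with W-linked transcripts were searched for 1 library that stood apart from the other 3, and 11 genes had one. For independent values with a normal spread, chance gives such a library in about 1 of 20 groups. The named genes may vary together and many were chosen by p, so the 11 are not read against that rate.

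FOS 1 stood apart in 5 of them. It was high for the interferon genes IRF7 and MX1, at 205 and 276 CPM, where the other 3 libraries reached 124 and 83.9 CPM. It was low for the wall genes PGM5, COL14A1 and TEK, at 74.2, 3.24 and 20.1 CPM, where the others were at or above 86.3, 8.14 and 34.3 CPM.

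FOS 3 was high for the Z-linked TMEM175, at 40.6 CPM against at most 34.5 CPM, for SCG2, at 95.0 CPM against at most 55.4 CPM, and for KRT19, at 8.87 CPM against at most 1.75 CPM. Control 3 was high for the Z-linked ZNF532, at 52.1 CPM against at most 42.8 CPM, for HSPB7, at 11.3 CPM against at most 6.85 CPM, and for CRYAB, at 2.40 CPM against at most 1.92 CPM. Of the 11, TMEM175 alone passed the test between the sets, and its 40.6 CPM in FOS 3 lay below the 68.0 CPM of control 2.

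In the fit with the interaction, the log2 fold change of GIMAP7L5 between the sets differed by -12.82 (FOS minus control). The difference rests on 1 library without W-linked transcripts in each diet.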

How the results depend on the processing

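The median log2 fold change of Z-linked genes, -0.47, was -0.38 on log2(FPKM + 1), lay between -0.49 and -0.46 under the other settings and between -0.50 and -0.46 with each library left out. The number of Z-linked genes called lower, 16, was 32 without the diet covariate, 28 with no filter on low counts, 99 with DESeq2, 10 with limma-voom, 7 on log2(FPKM + 1) and 9 on log2(FPKM + 0.1); for these changes the cause was not tested. With the replicate block, for the pairing of numbers 1 and 3, it was 9, of which 8 were among the 16. In that fit GLDC was called higher and 53 genes were called in all. The p-values of the block fit leave out the spread between numbers 1 and 3. The block changed no other count by over 1.5 times. Left-out libraries gave 0 to 12 Z-linked calls, 26 to 59 calls in all beside 63, 0 to 3 on other chromosomes beside 0, and 8 to 28 unplaced beside 28, with fewer libraries in each fit. DESeq2 called 202 in all, 18 on other chromosomes, 61 unplaced and 36 for the dependence on diet. Without the diet covariate, 1 gene on another chromosome was called. Chosen after the data were seen, the contrasts within FOS and within control called 24 and 23 genes, with 0 and 0 on Z, 3 and 1 on other chromosomes and 6 and 7 unplaced; robust empirical Bayes called 18 on Z.

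The dependence on diet was called for 1 to 22 genes with 1 of the 4 libraries with W-linked transcripts left out; it could not be fitted without FOS 2 or control 2. Of 132 named genes, 10 changed sign with a library left out, none of them called by edgeR: SUB1 (-0.19 to 0.02), Prom1 (-0.12 to 0.88), COL14A1 (-0.04 to 0.94), SH2D1A (-0.01 to 0.61), ESR1 (-0.15 to 0.27), PGM5 (-0.59 to 0.10), BTK (-0.49 to 0.03), AMY1A (-0.82 to 0.58), VLDLR (-0.28 to 0.12) and TYK2 (-0.01 to 0.14). Only 2 libraries lack W-linked transcripts, which limits every comparison, and depth limits the values of W-linked genes in FOS 2 and control 2, where a count of 0 allows up to 3.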

Other observations

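Of the 18 genes that DESeq2 called on chromosomes other than Z and W, some have not been described above, and edgeR called none of them. DESeq2 called 1.43% of all genes tested. They were named after their values were seen. GTSF1, a small RNA pathway protein best known from germ cells, had 30.9, 47.8, 44.6 and 27.4 CPM in FOS 1, FOS 3, control 1 and control 3, against 3.55 CPM in FOS 2 and 18.3 CPM in control 2 (DESeq2 adjusted p = 0.00726). The sets did not overlap, but the libraries without W-linked transcripts differed from each other as well. A gene annotated as a medium-chain fatty acyl-CoA hydrolase precursor on chromosome 11 had 83.5, 112, 105 and 82.9 CPM, against 187 CPM in FOS 2 and 216 CPM in control 2, a log2 fold change of -1.07 (DESeq2 adjusted p = 3.89e-05).

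GSTT1, a glutathione transferase, had 74.4, 51.6, 16.3 and 19 CPM, against 22.2 CPM in FOS 2 and 11.8 CPM in control 2, and overlapped between the sets (DESeq2 adjusted p = 0.0368). MSMB, a secreted protein, had 28.2 CPM in FOS 2 and between 0.421 and 4.83 CPM in the 5 other libraries (DESeq2 adjusted p = 0.0247), so that its difference rests on 1 library. BG8, of the multigene B-G family on chromosome 16, had 5.2, 9.32, 1.56 and 1.71 CPM, against 12.8 CPM in FOS 2 and 12.7 CPM in control 2, a log2 fold change of -1.99 (DESeq2 adjusted p = 0.0141). BG1 of the same family had a log2 fold change of 1.53.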
